A study of Homo sapiens with 6 samples.

Results

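The genes described here encode the NuRD (nucleosome remodelling and deacetylase) complex. The 10 members were fixed by name: CHD3, CHD4, MTA1, MTA2, MTA3, HDAC1, HDAC2, GATAD2A, GATAD2B and MBD3. All 10 were among the 25528 gene symbols of the expression table, and all 10 passed the filter on low values, which kept 11672 genes. RNA-seq expression was measured in DU-145/tet-XISTshRNA cells, a human prostate carcinoma line that carries a doxycycline-inducible short hairpin RNA against XIST, the long noncoding RNA of X-chromosome inactivation. Both groups carry the hairpin construct. The 3 vehicle samples received 0.1% DMSO, and the 3 DOX samples received 500 ng/ml doxycycline, for 7 days in the study's methods. Doxycycline itself and the hairpin cannot be told apart in this design, and each group comes from a single engineered line.

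NuRD joins chromatin remodelling and histone deacetylation in one assembly. CHD3 and CHD4 are alternative ATPases that move nucleosomes, HDAC1 and HDAC2 remove acetyl groups from histones, and the MTA proteins form the scaffold that holds the deacetylases. GATAD2A and GATAD2B bridge the deacetylase part to the remodeller, while MBD2 or MBD3 occupies the methyl-CpG-binding-domain position. The histone chaperones RBBP4 and RBBP7 and the small subunit CDK2AP1 complete the complex. Paralogues are mostly used in place of each other, so the balance within a pair bears on which form of the complex can be assembled.

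XIST was listed at 0 TPM in all 6 samples, so its level gave no check of the labels. TPM is a level per transcript length and per total of the sample. The signal recognition particle RNAs RN7SL1, RN7SL2 and RN7SL3, with RN7SK and RPPH1, took 67.5% to 76.0% of all TPM in vehicle and 76.0% to 82.6% in DOX. Levels are therefore given as scaled TPM, each sample divided by its median ratio to the other samples. Over the genes tested, the log2 fold change had a median of 0.02 on scaled TPM and -0.35 on TPM as deposited. Estimated reads per sample ran from 5453754 in vehicle replicate 3 to 64572117 in DOX replicate 1, and the members together held 0.108% to 0.139% of them. The epithelial keratins KRT8 and KRT18 lay at 59.9 to 91.2 and 75.9 to 147 TPM as deposited, whereas KLK3, a gene of prostate luminal cells, was listed at 0 in all 6 samples. The leukocyte gene PTPRC reached at most 0.0167 TPM.

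No NuRD gene, and none of the 11672 genes tested, was called between vehicle and DOX on scaled TPM (limma, Benjamini-Hochberg adjusted p under 0.05 and a fold over 1.5). MTA2, a scaffold subunit, and GATAD2A, a bridging subunit, had the members' lowest p-values, and in both the DOX samples all lay above the vehicle samples on scaled TPM. A limma voom fit on estimated reads with the replicate block was added after the data were seen. There MTA2, GATAD2A and MBD3 passed the adjusted p but not the fold (adjusted p = 0.0264, 0.0354 and 0.0197, at log2 fold changes of 0.38, 0.36 and 0.55), beside 5.63% of all genes with DOX higher and 7.98% with DOX lower at that adjusted p. Without the block that fit gave adjusted p = 0.232, 0.246 and 0.299, and limma on scaled TPM with the block gave 0.0648, 0.0843 and 0.0696. The block pairs samples of the same number, whose meaning no label gives. That pairing was taken from correlations in these same data, which can make the p-values of fits with the block too small. The promoters of MTA2 and GATAD2A are shown because these genes had the members' lowest p-values. No expression result rests on these promoter sequences. They come from RefSeq (GRCh38.p14), run 5′ to 3′ on the gene's strand from 250 bases before to 50 bases after the start, and have GGGCGG or CCAAT motifs on either strand in capitals.
MTA2, chr11:62601816-62602115, minus strand: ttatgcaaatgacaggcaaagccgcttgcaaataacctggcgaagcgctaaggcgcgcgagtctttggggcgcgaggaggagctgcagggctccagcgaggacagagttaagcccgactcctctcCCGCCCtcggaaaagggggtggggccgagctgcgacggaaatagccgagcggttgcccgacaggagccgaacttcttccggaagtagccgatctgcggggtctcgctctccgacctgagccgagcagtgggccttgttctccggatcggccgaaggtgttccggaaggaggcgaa
GATAD2A, chr19:19385593-19385892, plus strand: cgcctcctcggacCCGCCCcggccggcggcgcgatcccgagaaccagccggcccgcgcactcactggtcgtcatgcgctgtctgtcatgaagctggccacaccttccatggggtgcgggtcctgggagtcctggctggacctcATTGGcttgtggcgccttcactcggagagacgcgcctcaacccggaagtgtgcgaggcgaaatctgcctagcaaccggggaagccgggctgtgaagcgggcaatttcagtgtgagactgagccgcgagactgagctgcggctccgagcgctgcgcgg
Searched on both strands, GGGCGG, the core of the GC box, was present in 8 of the 10 members' promoters and in 44.6% of 27305 promoters of the same length. CCAAT was present in 4 of 10 members and in 35.7% of all promoters, and TATAAA in 0 of 10 and 12.0%. The members without GGGCGG were CHD3 and HDAC2. The window of CHD3 held 10 CG dinucleotides and those of the other members 24 to 49, beside a median of 14 over all promoters. The shares over all promoters were not matched for base composition. The windows of CHD3, CHD4, HDAC2 and GATAD2B lay wholly inside the gene coordinates given below, so the start used differs from the gene's outer end. That of MTA3, chr2:42493860-42494159, ended before the first base of the gene, so its start differs as well. These matches describe the letters of the window and do not show binding.

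Coordinates are those of the whole protein-coding genes in GRCh38 (GENCODE 44). CHD3 lies at chr17:7884796-7912760, CHD4 at chr12:6570082-6614524, MTA1 at chr14:105419820-105470729, MTA2 at chr11:62593214-62601865 and MTA3 at chr2:42494569-42756947. HDAC1 lies at chr1:32292083-32333635 and HDAC2 at chr6:113933028-114011308. GATAD2A lies at chr19:19385826-19508932, GATAD2B at chr1:153789030-153923360 and MBD3 at chr19:1573596-1592865. Their canonical transcripts range from 7 exons in MBD3 to 40 in CHD3 and CHD4.

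All 10 members were expressed in every sample, and their order by mean scaled TPM over the 6 samples ran from HDAC1 (37.7) to CHD3 (7.23). This order is of a level per transcript length and not of reads. HDAC1 stood above MTA2 (27.0), and MTA2 above CHD4 (22.8), in 6 of 6 samples. CHD4 and MTA1 (22.6) were not separated, with CHD4 higher in 4 of 6 samples. GATAD2A (13.9), MBD3 (12.8), GATAD2B (11.8) and HDAC2 (10.8) also exchanged places between samples. MTA3 (8.52) was below HDAC2, and CHD3 below MTA3, in 6 of 6 samples. HDAC1 was higher than 90.2% of the genes tested and CHD3 higher than 50.7%.

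**Figure D1:**
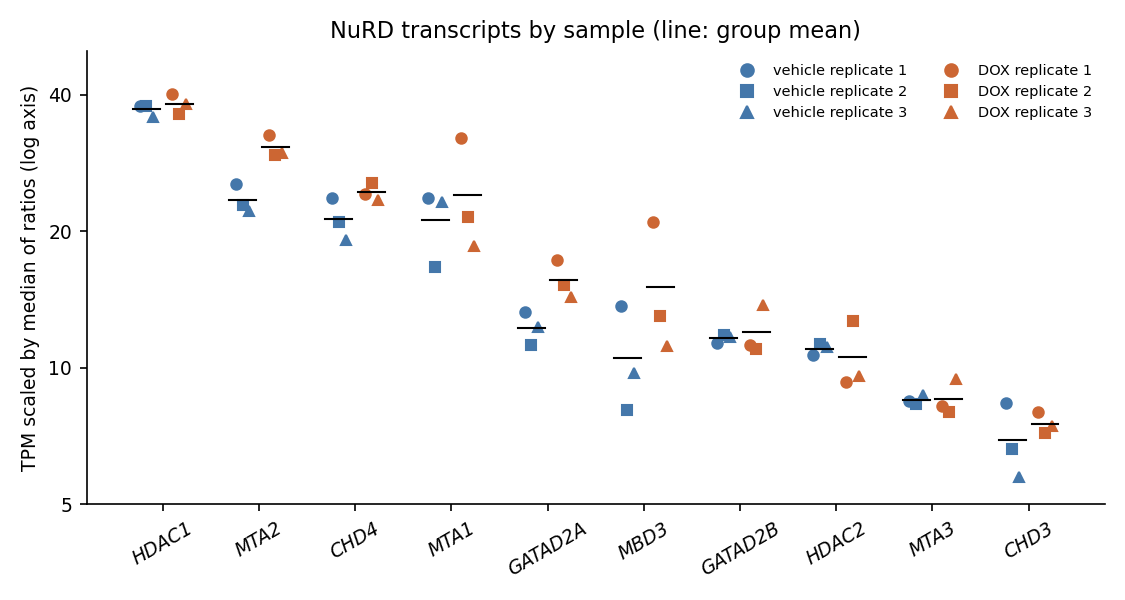
Scaled TPM (log axis) of the 10 NuRD genes in the 3 vehicle and 3 DOX samples, 1 point per sample. HDAC1 was the highest member and CHD3 the lowest by mean, and the DOX points lay above all vehicle points for MTA2 and GATAD2A on this scale, though not on TPM as deposited.

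Of the remodelling ATPases, CHD4 was the main form in both groups. CHD4 was at 23.7, 21.0 and 19.1 scaled TPM in vehicle replicates 1 to 3 and at 24.1, 25.6 and 23.4 in DOX. The groups overlapped only through vehicle replicate 1, and the log2 fold change was 0.19 (SE 0.12, limma adjusted p = 0.432). CHD3 was at 8.37, 6.64 and 5.75 in vehicle and at 7.98, 7.19 and 7.43 in DOX. The DOX values fell inside the vehicle range, with a log2 fold change of 0.12 (SE 0.15, limma adjusted p = 0.675) that ran from 0.0138 without vehicle replicate 3 to 0.25 without vehicle replicate 1. Both directions turned on TPM as deposited, at -0.23 for CHD4 and -0.27 for CHD3. CHD5, the neural paralogue, had at most 41 reads in a sample and was not tested.

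Among the scaffold subunits, MTA2 gave the members' lowest p. MTA2 was at 25.4, 22.9 and 22.1 scaled TPM in vehicle and at 32.6, 29.4 and 29.8 in DOX. The groups did not overlap, and DOX was 1.29-fold higher with a log2 fold change of 0.37 (95% interval 0.11 to 0.63, limma adjusted p = 0.280). A fit that blocked on replicate number gave limma adjusted p = 0.0648, and on TPM as deposited the difference was -0.06. Groups that did not overlap with DOX higher were found in 10.8% of genes tested, and with DOX lower in 9.22%. MTA1 varied most among the scaffolds, at 23.7, 16.7 and 23.2 in vehicle and 32.2, 21.5 and 18.5 in DOX. Its groups overlapped, and the log2 fold change was 0.15 (SE 0.21, limma adjusted p = 0.709), or -0.28 on TPM as deposited. MTA3 was at 8.44, 8.32 and 8.70 in vehicle and 8.23, 7.99 and 9.45 in DOX, with the vehicle values inside the DOX range (log2 fold change 0.01, SE 0.12, limma adjusted p = 0.980).

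The deacetylases were the steadiest members in vehicle together with MTA3 and GATAD2B. HDAC1 was at 37.8, 37.9 and 35.8 scaled TPM in vehicle and 40.2, 36.2 and 38.1 in DOX. The groups overlapped, and the 95% interval of the log2 fold change of 0.04 ran from -0.21 to 0.29 (limma adjusted p = 0.877). HDAC2 was at 10.7, 11.3 and 11.1 in vehicle and 9.32, 12.7 and 9.61 in DOX. DOX replicate 2 was the highest sample and the other two DOX samples the lowest, with a log2 fold change of -0.07 (SE 0.14, limma adjusted p = 0.806) that ran from -0.20 without DOX replicate 2 to -0.0003 without DOX replicate 1. On TPM as deposited HDAC2 was at -0.48 (adjusted p = 0.204, or 0.0490 with the replicate block), under the 1.5-fold criterion.

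The bridging subunits differed in their values. GATAD2A was at 13.3, 11.2 and 12.3 scaled TPM in vehicle and 17.3, 15.2 and 14.3 in DOX. The groups did not overlap, and the log2 fold change was 0.33 (95% interval 0.04 to 0.61, limma adjusted p = 0.283, or 0.0843 with the replicate block), against -0.09 on TPM as deposited. GATAD2B was at 11.3, 11.8 and 11.7 in vehicle and 11.2, 11.0 and 13.7 in DOX. DOX replicate 3 stood above all vehicle values and the other two DOX samples below them, and the log2 fold change was 0.04 (SE 0.13, limma adjusted p = 0.895).

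MBD3, the methyl-CpG-binding-domain subunit, had the members' highest fold change and widest spread on scaled TPM, whereas on TPM as deposited its log2 fold change was 0.05. It was at 13.7, 8.06 and 9.75 scaled TPM in vehicle and 20.9, 13.0 and 11.2 in DOX. Each DOX sample lay above the vehicle sample of the same number, but the groups overlapped through vehicle replicate 1. The log2 fold change was 0.46 (95% interval -0.06 to 0.99, limma adjusted p = 0.348), or adjusted p = 0.0696 with the replicate block. It ranged from 0.21 without DOX replicate 1 to 0.65 without vehicle replicate 1. MBD3 also had the fewest reads, with 175 in vehicle replicate 3.

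**Figure D2:**
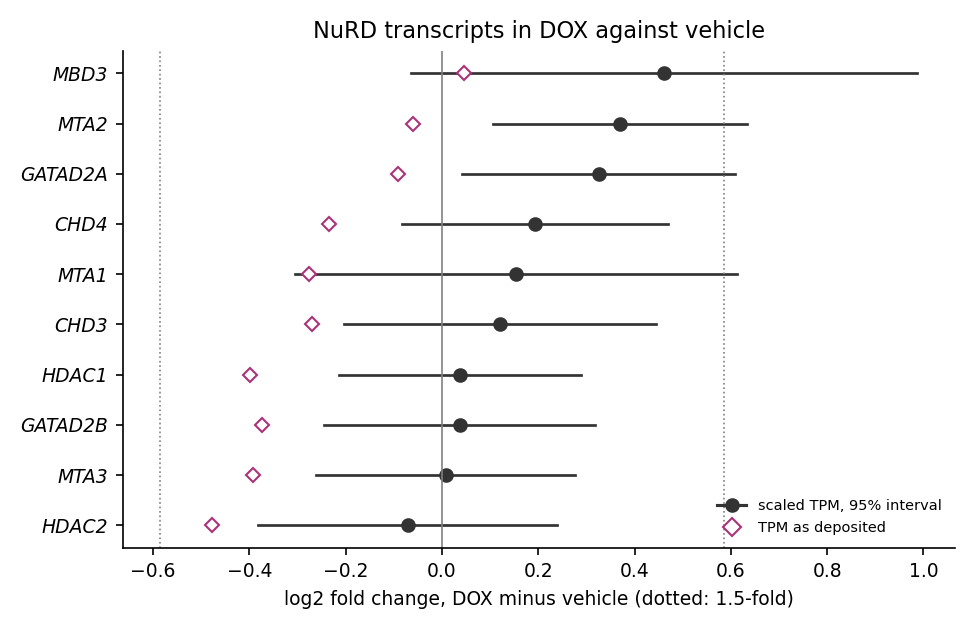
Log2 fold change of DOX over vehicle for each NuRD gene on scaled TPM, with 95% intervals from limma, and on TPM as deposited (diamonds). Dotted lines mark 1.5-fold, and 9 of 10 members lie above 0 on scaled TPM but 1 of 10 on TPM as deposited.

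Counted together on scaled TPM, 9 of 10 members had a log2 fold change above 0 (median 0.14), beside 52.6% of all genes, whereas on TPM as deposited 9 of 10 were below 0 (median -0.27). After the correction for GC and length described below, 7 of 10 members and 52.9% of genes were above 0. The share of all genes called was 0% lower and 0% higher on scaled TPM, where limma gave 133 lower and 136 higher genes at an unadjusted p under 0.05 with a fold over 1.5. An unadjusted p under 0.05 alone was reached by 2 of 10 members with DOX higher, beside 8.04% of all genes, and by 0 of 10 with DOX lower, beside 7.8%. The 95% interval lay within 1.5-fold for 6 of 10 members (CHD3, CHD4, MTA3, HDAC1, HDAC2 and GATAD2B), beside 64.9% of all genes. For MTA1, MTA2, GATAD2A and MBD3 the interval reached past 1.5-fold. On TPM as deposited, 2.98% of genes were called lower and 0.0257% higher, none of them a member. There the groups did not overlap with DOX lower for CHD3, MTA3 and HDAC1, beside 30.7% of all genes.

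The balance within paralogue pairs does not depend on the scaling of a sample. The MTA2 to MTA3 ratio was 3.01, 2.75 and 2.54 in vehicle and 3.97, 3.68 and 3.15 in DOX. The groups did not overlap, and the log2 ratio was 1.46 ± 0.12 in vehicle and 1.84 ± 0.17 in DOX (SD, n = 3 each) at an exact permutation p = 0.1, two-sided, the smallest that 3 against 3 samples allow, so it could not pass the threshold. The difference in that log2 ratio was 0.38, or 0.26 after the GC and length correction described below. MTA2 made up 73.4% of the pair in vehicle and 78.1% in DOX. The other 6 pairs overlapped between groups, with exact permutation p from 0.3 to 0.8. CHD3 held 24.4% of the CHD3 and CHD4 level in vehicle and 23.6% in DOX, and HDAC1 held 77.1% and 78.4% of its pair. GATAD2A held 51.3% and 56.6% of the GATAD2 level. All these shares are of TPM, a level per transcript length, and not of reads. Estimated reads of HDAC1 were 1756, 2044 and 524 in vehicle and 7422, 1902 and 1845 in DOX. Those of HDAC2 were 1830, 2248 and 600 in vehicle and 6347, 2460 and 1717 in DOX. The canonical transcripts of HDAC1 and HDAC2 are 2118 and 9737 bases long. In vehicle replicate 1, GATAD2A had 1847 reads and GATAD2B 4118. MBD2 held 69.2% and 61.6% of the MBD2 and MBD3 level, and its log2 ratio to MBD3 was lower in DOX in all 3 same-numbered samples. That difference of -0.50 was -0.20 after the GC and length correction, and ran from -0.80 without vehicle replicate 1 to -0.13 without DOX replicate 1. Across the 7 pairs no exact permutation p was below 0.1, before any adjustment.

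**Figure D3:**
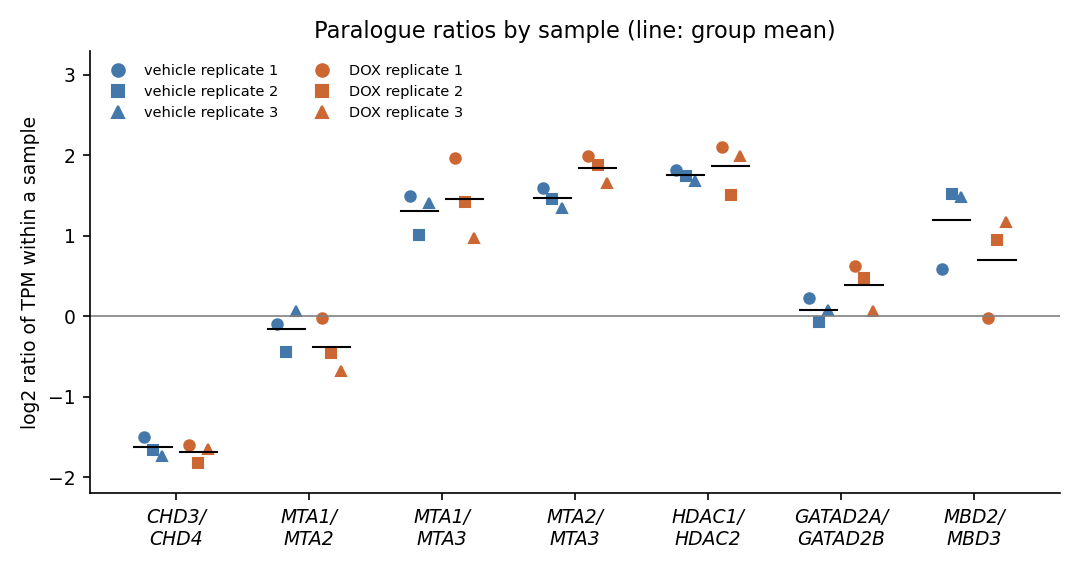
Log2 ratio of scaled TPM within each paralogue pair, 1 point per sample, vehicle and DOX. The groups do not overlap for MTA2/MTA3 and overlap for the other 6 pairs.

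The fold changes of the members moved with the base composition of their transcripts. HDAC2, at 37.8% GC, had the lowest log2 fold change and MBD3, at 62.8% GC, the highest. Over the 10 members Pearson's r was 0.76 and Spearman's rho 0.79, and over 10850 genes tested with a GC value they were 0.66 and 0.69. The correlations are across genes of the same 6 libraries, and genes are not independent replicates. Genes under 40% GC had a median log2 fold change of -0.23, and those of at least 60% GC of 0.26. After a correction for GC and length, MTA2 was at 0.22 (limma adjusted p = 0.352), GATAD2A at 0.21 (0.354) and MBD3 at 0.28 (0.464), and HDAC2 moved from -0.07 to 0.25 (0.354). The span between the lowest and the highest member narrowed from 0.53 to 0.36 on the log2 scale. The part of base composition in these differences was not tested further.

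**Figure D4:**
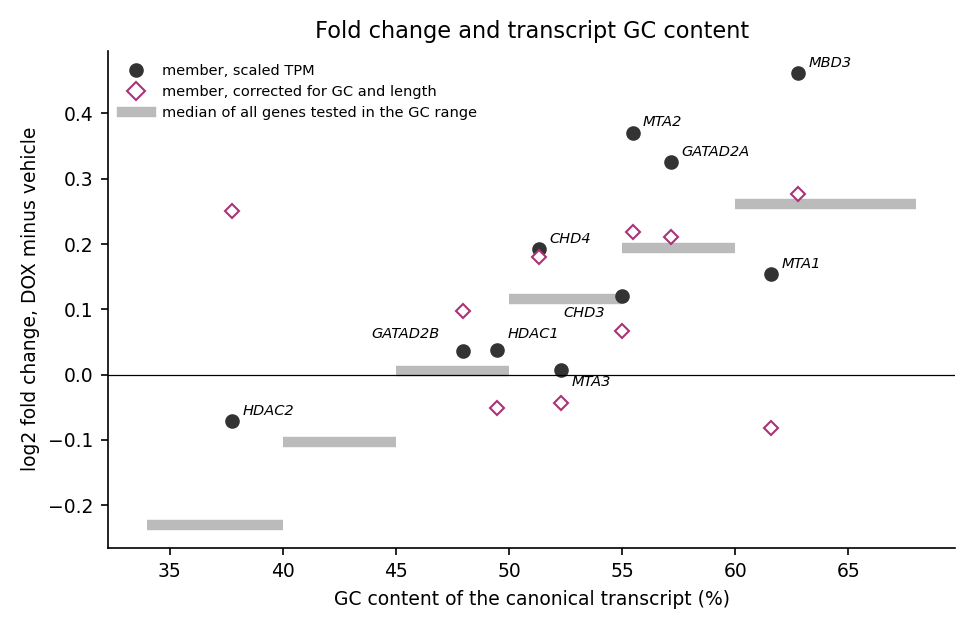
Log2 fold change of each NuRD gene on scaled TPM against the GC content of its canonical transcript (percent), with grey bars for the median of all genes in each GC range, the outer ranges being open-ended. Members at higher GC lie higher, as do the medians of all genes.

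None of the other subunits passed the test. RBBP7 was at 40.6, 44.5 and 37.6 scaled TPM in vehicle and 41.8, 40.7 and 48.9 in DOX, the highest mean of any subunit, and RBBP4 was at 27.4, 29.3 and 26.6 against 24.1, 27.6 and 29.0. Their groups overlapped (limma adjusted p = 0.708 and 0.861). CDK2AP1 was at 36.0, 35.7 and 37.5 in vehicle and 40.7, 39.3 and 44.5 in DOX. The CDK2AP1 groups did not overlap, with a log2 fold change of 0.18 (limma adjusted p = 0.4215). MBD2 had a log2 fold change of 0.002 (limma adjusted p = 0.995).

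Genes of related corepressors were described for comparison, and none was called on scaled TPM. On TPM as deposited 2 of 12 SIN3 genes tested were called, beside 2.98% of all genes called lower and 0.0257% higher. With the replicate block on that scale, 2217 of 11672 genes tested were called lower and 15 higher. There the calls numbered 4 of 6 other CHD remodelers, 2 of 12 SIN3 and 2 of 8 CoREST genes. They also held 2 of 7 in the methyl-CpG-binding-domain list and 1 of 10 NuRD-associated factors. These counts were not tested against the calls over all genes. All 6 other CHD remodelers tested had log2 fold changes below 0 (median -0.31, or -0.16 after the GC and length correction), with CHD2 at -0.41 (limma adjusted p = 0.280), CHD9 at -0.55 and CHD1 at -0.52. The SIN3 complex shares HDAC1 and HDAC2 with NuRD, and 12 of 13 of its listed genes were tested, with a median of 0.03. Of these, ARID4A and ARID4B were both at -0.51 and BRMS1 at 0.46, with limma adjusted p from 0.280 to 0.297. In the CoREST list, which also works with HDAC1 and HDAC2, the median over 8 genes was 0.002, with ZMYM2 at -0.38, RCOR3 at -0.34 and HMG20B at 0.36. The 10 NuRD-associated factors tested had a median of 0.07, with ZNF592 at 0.26, ZFPM1 at 0.24 and ZMYND8 at -0.22. KDM1A (0.02) is counted in both the NuRD-associated and the CoREST list. Other histone deacetylases (7 tested) had a median of 0.17, with HDAC3 at 0.22, HDAC6 at 0.18 and HDAC10 at 0.17. Other methyl-CpG-binding proteins (7 tested) had a median of 0.002, with MBD5 at -0.36, ZBTB33 at -0.32 and MBD1 at 0.20. That list holds MBD2, also counted among the other NuRD subunits, and the 6 genes without it had a median of -0.03. All of these medians were below 0 on TPM as deposited.

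**Figure D5:**
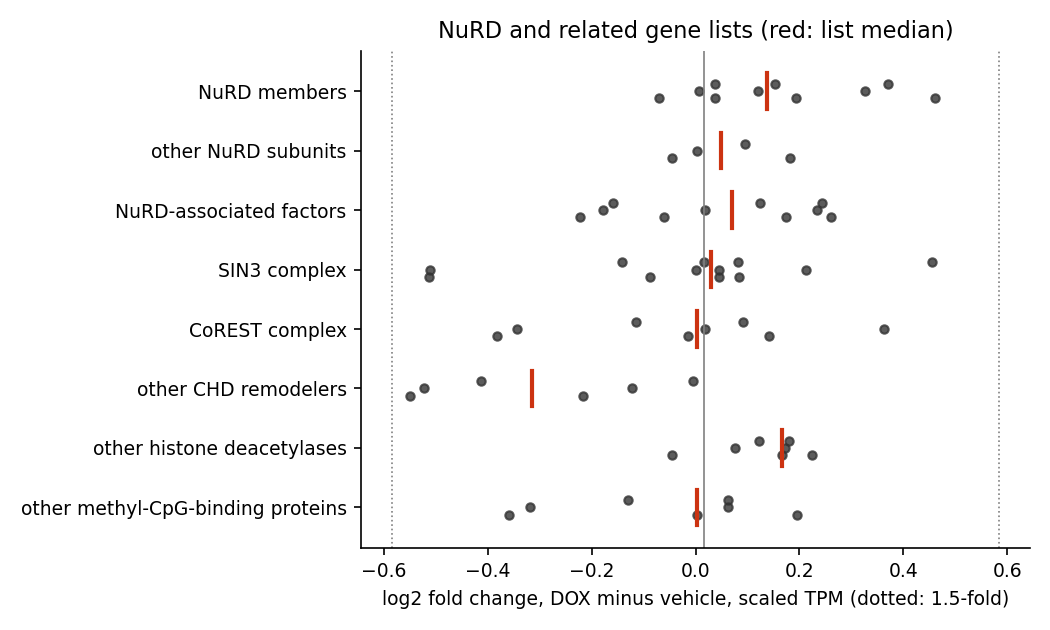
Log2 fold change of DOX over vehicle on scaled TPM for the genes tested in each list described, 1 point per gene and red for the list median. The other CHD remodelers lie at or below 0, and the NuRD members lie between -0.07 and 0.46.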

How the data were processed

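The authors aligned reads of stranded mRNA libraries with STAR to GRCh38 and deposited TPM per gene symbol for each of the 6 samples; the counting tool, strand setting and versions are not given in the sources used here. A comparison table that the authors made with DESeq2 holds fold changes and p-values, which were not used. From its deposited column of mean normalized counts, a signal averaged over all samples, reads per gene were estimated (96.4% to 99.9% of low values came out whole within 0.05). TPM was scaled by the median of ratios, and log2(scaled TPM + 1) was tested with limma 3.58.1 (R 4.3.3; moderated with a trend) for genes whose mean deposited TPM reached 1, so fold changes of low genes are understated. Paralogue ratios were compared with exact permutation tests (SciPy 1.17.1), and annotation matched 87.2% of symbols. The NuRD members, the related lists and the tests were chosen with earlier results of these data known. All members and other subunits are named, and from each related list reported the 3 genes with the smallest p; 1 related list and 1 marker gene are not reported here. Samples with the same replicate number deviated together (r = 0.55, 0.26 and 0.18 for numbers 1, 2 and 3). From these correlations the numbers were taken as pairs in the fits with the replicate block, although vehicle 2 with DOX 3 reached 0.22 and no label gives the meaning of a number. Pairs chosen from the same data can make the p-values of those fits too small. The main fit and the main ratio tests took treatment alone, without pairs. The study's methods describe replicate cultures. In bulk RNA, a change in every cell and a change in the share of cells cannot be told apart. Alternatives were TPM as deposited, the replicate block, another pseudocount, other filters, a GC and length correction by splines (5 degrees of freedom) and leaving out each sample. A limma voom fit on the estimated reads, with library sizes scaled by the median of ratios in place of the planned TMM, was added after the data were seen.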

Additional observations from a re-analysis of the deposited data

How the results depend on the processing

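No NuRD gene was called under any of the alternatives run. On TPM as deposited, calls numbered 348 lower and 3 higher, or 2217 lower and 15 higher once the replicate block was added. On scaled TPM the replicate block gave 0 and 0 calls and left every member's fold change as it was. A mean TPM of at least 5 gave 1 gene lower. Leaving out 1 sample gave 0 to 1 genes lower and 0 to 15 higher, the 15 without vehicle replicate 1. On TPM as deposited, with and without the replicate block, the direction turned for CHD3 (-0.27), CHD4 (-0.23), MTA1 (-0.28), MTA2 (-0.0601), MTA3 (-0.39), HDAC1 (-0.40), GATAD2A (-0.0918) and GATAD2B (-0.37), as the scaling moves all genes. With the GC and length correction, with and without the block, it turned for MTA1 (-0.0825), MTA3 (-0.0428), HDAC1 (-0.0514) and HDAC2 (0.25). That correction, run without the block for ratios, also turned the log2 ratios MTA1/MTA3 (-0.0396) and HDAC1/HDAC2 (-0.30), and the cause was not tested. With 1 sample left out, MTA1 ranged from -0.0718 to 0.32, MTA3 from -0.0568 to 0.0538, HDAC1 from -0.0039 to 0.078, CHD3 from 0.0138 to 0.25, CHD4 from 0.12 to 0.27, HDAC2 from -0.20 to -0.0003 and GATAD2B from -0.0552 to 0.0937. The log2 ratio differences ranged from -0.11 to 0.0054 for CHD3/CHD4, -0.10 to 0.39 for MTA1/MTA3, -0.41 to -0.076 for MTA1/MTA2, 0.19 to 0.47 for GATAD2A/GATAD2B, -0.80 to -0.13 for MBD2/MBD3 and -0.0026 to 0.30 for HDAC1/HDAC2. That of MTA2/MTA3 ranged from 0.30 to 0.47. The voom fit on estimated reads was chosen after seeing the data, in place of planned voom fits with TMM that had been run on the same reads and whose results were known. It called 1 gene lower and 0 higher, or 257 lower and 170 higher with the replicate block, where MTA2, GATAD2A and MBD3 passed the adjusted p but not the fold, MTA3 turned to -0.0016, and 2 SIN3 genes and 1 other CHD remodeler were called. The number of calls therefore depends on the fit, and the cause was not tested.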
